A study of Mus musculus with 2 samples.

Results

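The 4 fibroblast growth factor (FGF) receptor genes, Fgfr1, Fgfr2, Fgfr3 and Fgfr4, and the 2 epithelial splicing regulatory genes, Esrp1 and Esrp2, were followed in RNA of the embryonic mouse stomach. They were chosen by name, with all their annotated transcripts: 6 of 43346 genes and 72 of 103639 transcripts in the deposited tables. RNA called total RNA in the labels, in a size fraction above 200 nucleotides, was taken from stomachs of healthy B6NCrl mouse embryos at day 15.5, with males and females mixed, and ERCC spike-in RNAs were added. There was 1 group of 2 biological replicates, replicate 1 from a pool of 78 embryos and replicate 2 from a pool of 62. No animal was treated or carried an engineered allele, and no second condition or separated tissue layer was measured. Epithelium, mesenchyme and muscle therefore contributed to each value together, and in such a mixture fewer cells of a type and less RNA per cell cannot be told apart.

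The tables assigned 43209506 counts to genes in replicate 1 and 44257493 in replicate 2. Markers of stomach were present: all 7 glandular genes and all 9 squamous genes of the lists used stood at 1 TPM (a level scaled by transcript length and library size) or more in both libraries. Markers of pancreas, liver and striated muscle were also measured, with list medians for pancreas of 433 TPM (replicate 1) and 493 TPM (replicate 2). With 1 group of 2 libraries no exact test can reach significance, so values are given per library with the mean ± SD (n = 2) and no p-value. The credibility bounds printed are the authors' own for 1 library, at a level that the file headers do not state. The tables record no molecular identifiers, so the counting intervals given for ratios cover counting error only.

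FGF receptors are membrane tyrosine kinases whose outer part holds immunoglobulin-like loops that bind the ligand. In Fgfr1, Fgfr2 and Fgfr3 the end of the third loop is encoded by either of a pair of adjacent, mutually exclusive exons, which give the IIIb or the IIIc form. The IIIb form of Fgfr2 is known as the epithelial receptor for Fgf7 and Fgf10 from the mesenchyme, and the IIIc form as the mesenchymal one, while Fgfr4 has no such choice. The RNA-binding proteins Esrp1 and Esrp2 are made in epithelia and favour the IIIb exon of Fgfr2. In mice, signalling by Fgf10 through the Fgfr2 IIIb form is known to be needed for normal growth of the stomach epithelium.

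The exon pair is shown here because all form values rest on it. In GENCODE M21 (build mm10), Fgfr1, Fgfr2 and Fgfr3 each hold 1 pair of coding exons that share the donor before them and the acceptor after them without occurring together in a protein-coding transcript. The exon that comes first in transcript order is IIIb and the next is IIIc. The IIIb exons of Fgfr2 and Fgfr3 and the IIIc exon of Fgfr3 are printed. Capitals mark runs of at least 6 bases that are identical in the aligned IIIb exons of these 2 receptors, and the IIIc exon is in lower case throughout.
Fgfr2 IIIb (chr7:130199758-130199905, minus strand): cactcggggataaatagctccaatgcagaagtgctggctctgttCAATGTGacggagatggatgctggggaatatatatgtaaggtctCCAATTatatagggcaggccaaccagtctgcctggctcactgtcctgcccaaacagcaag
Fgfr3 IIIb (chr5:33731281-33731431, plus strand): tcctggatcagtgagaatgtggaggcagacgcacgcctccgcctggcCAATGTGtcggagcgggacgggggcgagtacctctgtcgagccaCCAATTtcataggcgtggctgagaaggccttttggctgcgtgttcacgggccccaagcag
Fgfr3 IIIc (chr5:33732117-33732261, plus strand): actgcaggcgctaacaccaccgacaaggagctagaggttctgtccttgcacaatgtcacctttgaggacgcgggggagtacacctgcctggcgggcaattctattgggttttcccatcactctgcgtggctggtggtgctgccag
The IIIb exon was 148 bases long in Fgfr2 and 151 bases in Fgfr3, and the IIIc exon of Fgfr3 was 145 bases long. Between Fgfr2 and Fgfr3, 52.0% of the 148 aligned IIIb bases were identical. Within Fgfr3, 51.8% of 139 aligned bases were identical between the IIIb and the IIIc exon.

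All 6 genes were detected, which here means 1 TPM or more in both libraries. The same held for 35.9% of all genes and for 64.5% of the protein-coding ones. Fgfr2 was the highest receptor, with a level of 88.48 TPM in replicate 1 against 83.14 in replicate 2 (85.81 ± 3.776, SD, n = 2). Fgfr1 stood at 29.38 and 28.04 TPM (28.71 ± 0.9475) and Fgfr3 at 24.12 and 20.72 TPM (22.42 ± 2.404). Fgfr4, known for pairing with the coreceptor Klb in hepatocytes, was lowest at 6.26 and 6.84 TPM (6.55 ± 0.4101). Fgfr2 therefore held 59.7% and 59.9% of the TPM of the 4 receptors, which summed to 148.2 and 138.7 TPM. The Fgfr2 level, its share and the sum include the unusual transcript Fgfr2-217, at 26.93 and 24.20 TPM, described further on. Both splicing regulators lay between Fgfr2 and Fgfr1: Esrp2 at 37.78 and 37.29 TPM (37.53 ± 0.3465) and Esrp1 at 31.01 and 30.11 TPM (30.56 ± 0.6364).

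**Figure D1:**
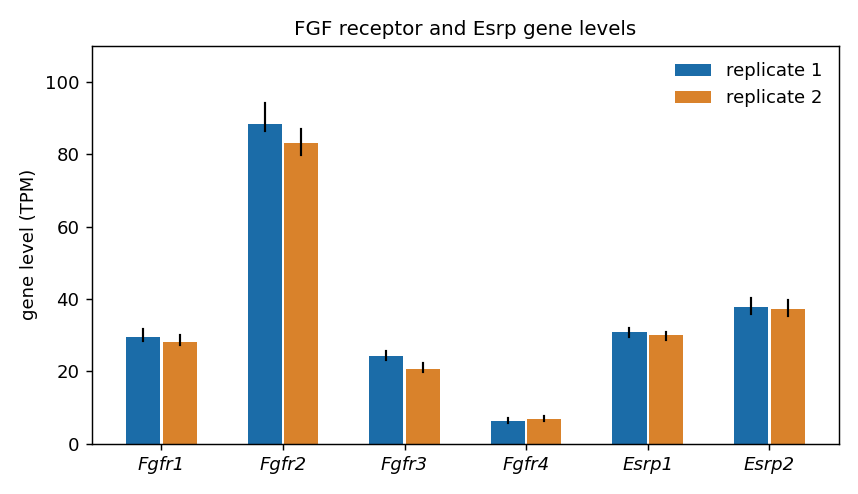
Gene level in TPM of the 4 FGF receptors and the 2 Esrp genes, replicate 1 left of replicate 2; black lines are the authors' credibility bounds for each library. Fgfr2 reaches 88.48 and 83.14 TPM, Fgfr4 stays at 6.26 and 6.84 TPM, and the other genes lie between 20.72 and 37.78 TPM.

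The order Fgfr2, Esrp2, Esrp1, Fgfr1, Fgfr3, Fgfr4 was the same in both libraries, and no neighbours in it had overlapping library values. Fgfr2 exceeded Esrp2 by 1.19 ± 0.05 on the log2 scale of TPM (mean ± SD of the within-library ratios), and Fgfr3 exceeded Fgfr4 by 1.77 ± 0.245. The closest neighbours were Esrp1 and Fgfr1, with a log2 ratio of 0.09 ± 0.018. Their credibility bounds overlapped within each library, at 29.43 to 31.87 TPM for Esrp1 and 28.44 to 31.72 TPM for Fgfr1 in replicate 1. Fgfr2 exceeded Fgfr1 by 1.58 ± 0.016 on the log2 scale, a value that includes the unusual transcript Fgfr2-217 described further on. The pseudogene Fgfr3-ps received 0 counts.

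The 3 receptors differed widely in their forms. Form levels were sums of transcript TPM, and the share given is IIIb over IIIb plus IIIc. Fgfr1 was almost wholly IIIc: its IIIb share was 2.54% in replicate 1 and 2.77% in replicate 2 (2.66% ± 0.164). It was 4.36% on average over transcripts of equal length in the tables and M21. That rule leaves out the IIIc transcripts Fgfr1-201 and Fgfr1-203 and no IIIb transcript, so it raises the share by construction. Fgfr2 carried both forms, with a IIIb share of 58.9% and 55.1% (57.0% ± 2.67). Fgfr3 was mostly IIIb, with 73.8% and 78.7% (76.2% ± 3.51). The library ranges of the 3 receptors did not overlap. Summed over the 3 receptors, IIIb transcripts came to 37.34 and 35.26 TPM and IIIc transcripts to 43.49 and 42.82 TPM, so that 46.2% and 45.2% of the receptor transcripts with a single form were IIIb.

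**Figure D2:**
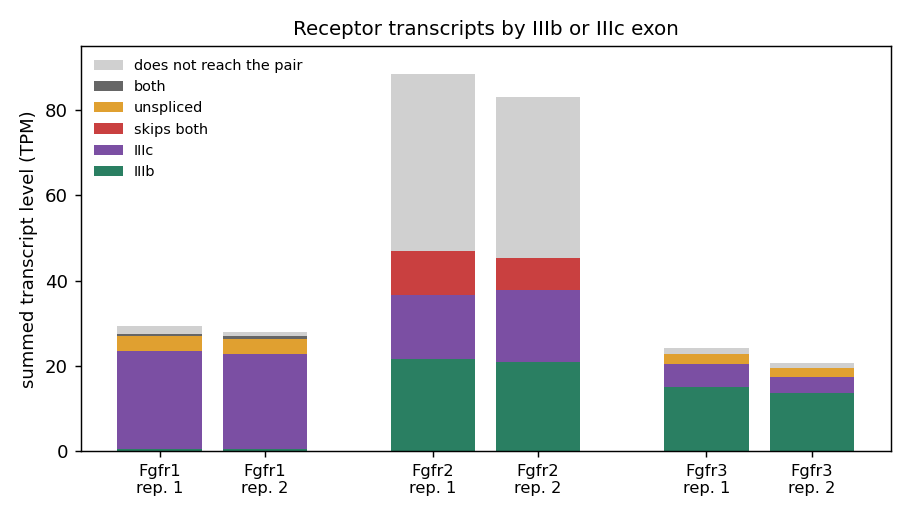
Summed transcript TPM of Fgfr1, Fgfr2 and Fgfr3 in each library, split by whether a transcript holds the IIIb exon, the IIIc exon, both, neither (skips both), unspliced sequence across the pair, or does not reach the pair. IIIc fills most of Fgfr1 (23.02 and 22.1 TPM), IIIb most of Fgfr3 (15.1 and 13.73 TPM), and Fgfr2 holds both beside 41.63 and 37.88 TPM of transcripts that do not reach the pair.

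Fgfr1 (chr8:25513654-25575718, plus strand) had 15 transcripts in the tables. Its IIIc transcripts summed to 23.02 and 22.1 TPM and its IIIb transcripts to 0.6 and 0.63 TPM. The IIIb level came from Fgfr1-214, with 0.6 and 0.07 TPM, and Fgfr1-213, with 0 and 0.56 TPM. Their lower bounds were near 0 in both libraries and their upper bounds ran from 0.7073 to 1.11 TPM, so the bounds of each overlapped between the libraries. The leading transcript Fgfr1-202 (IIIc) had 12.12 and 13.01 TPM. Fgfr1-203 and Fgfr1-201, both IIIc, had 5.57 and 3.29 TPM, and 4.12 and 5.14 TPM. Fgfr1-215, also IIIc, had 1.21 and 0.66 TPM. Fgfr1-206, which keeps intron sequence across the pair, had 3.36 and 3.60 TPM. A transcript with both exons, Fgfr1-208, annotated for nonsense-mediated decay, had 0.54 and 0.78 TPM.

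Fgfr2 (minus strand of chromosome 7) had 26 transcripts, of which 11 hold the IIIb exon and 5 the IIIc exon. The IIIb level of 21.64 and 20.9 TPM lay almost wholly on Fgfr2-211, at 13.02 and 13.54 TPM, and Fgfr2-208, at 8.41 and 7.03 TPM. The IIIc level of 15.1 and 17.01 TPM lay on Fgfr2-207, at 14.95 and 14.77 TPM, and Fgfr2-215, at 0.15 and 2.24 TPM. Fgfr2-226, which skips both exons and is annotated for nonsense-mediated decay, had 10.12 and 7.36 TPM, or 11.4% and 8.85% of the gene. Its bounds ran from 6.597 to 10.48 TPM in replicate 1 and from 4.87 to 9.14 TPM in replicate 2. The Fgfr2 share depends on how transcripts are measured: it was 46.5% IIIb in expected counts and 33.3% without the transcripts whose length differs between the deposited tables and M21. Expected counts, unlike TPM, are not scaled by transcript length. In the tables the IIIc transcript Fgfr2-207 has 4223 bases, against 3053 for Fgfr2-211 and 2296 for Fgfr2-208, both IIIb. The transcript left out by the second rule is Fgfr2-211, with 3053 bases in the tables and 4311 in M21.

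Transcripts that do not reach the exon pair took 47.0% and 45.6% of the TPM of Fgfr2, against 6.36% and 3.32% for Fgfr1 and 5.68% and 6.03% for Fgfr3. Nearly all of this lay on the 3′ side of the pair, 39.52 and 35.9 TPM over 7 transcripts. Fgfr2-217 alone had 26.93 and 24.20 TPM and was the leading transcript of the gene in both libraries. In M21 it joins 5 exons at the 3′ end of Fgfr2, within chr7:130162451-130172939, to 2 exons within chr7:133081757-133123350. The 2 exons lie about 2815 kb upstream of the start of the other Fgfr2 transcripts. Those 2 exons lie wholly inside exons of Ctbp2, a gene for a transcriptional corepressor on the same strand, which had 71.78 and 74.31 TPM of its own. Of its 2425 bases, 314 are shared with Ctbp2 and the other 2111 with other Fgfr2 transcripts, so only its junctions could be unique to it. With its TPM subtracted, in a calculation added after the data were seen, Fgfr2 came to 61.55 and 58.94 TPM (60.25 ± 1.846). The subtraction removes all reads assigned to Fgfr2-217, also those in the bases it shares with other Fgfr2 transcripts. Those reads were not assigned anew, so the level that a quantification without this transcript would give is not known. After the subtraction Fgfr2 remained the highest of the 6 genes, and its log2 ratio over Fgfr1 was 1.07 in place of 1.58. Whether reads crossed the junction could not be read from the tables.

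The other transcripts beside the pair were shorter. Fgfr2-221, with a retained intron near the 3′ end, had 8.44 and 8.15 TPM. Fgfr2-225, with a retained intron after the transmembrane exon, had 3.78 and 1.87 TPM. Fgfr2-219, at the 5′ end, had 2.11 and 1.98 TPM, and Fgfr2-224 had 0 and 1.21 TPM with bounds that reached 3.513 and 3.815 TPM. Transcripts annotated with a retained intron made up 16.6% and 16.5% of Fgfr2, 16.8% and 16.2% of Fgfr1, and 15.3% and 17.1% of Fgfr3. The corresponding share was 4.63% and 2.49% in Fgfr4 and 22.7% and 23.5% in Esrp2.

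Fgfr3 (chr5:33721674-33737068, plus strand) had 12 transcripts. Its leading transcript Fgfr3-211 (IIIb) had 11.37 and 11.56 TPM. A further IIIb transcript, Fgfr3-203, had 3.73 and 2.17 TPM. The IIIc transcripts Fgfr3-209 and Fgfr3-210 had 3.60 and 2.43 TPM, and 1.32 and 0.72 TPM. Fgfr3-205, which keeps intron sequence across the pair, had 2.29 and 2.04 TPM. The lower gene level in replicate 2 thus lay on Fgfr3-203 and on the IIIc transcripts, while Fgfr3-211 was level, and the bounds of all these transcripts overlapped between the libraries. Fgfr4 (chr13:55152640-55168759, plus strand) had nearly all its level on Fgfr4-201, at 5.97 and 6.67 TPM.

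**Figure D3:**
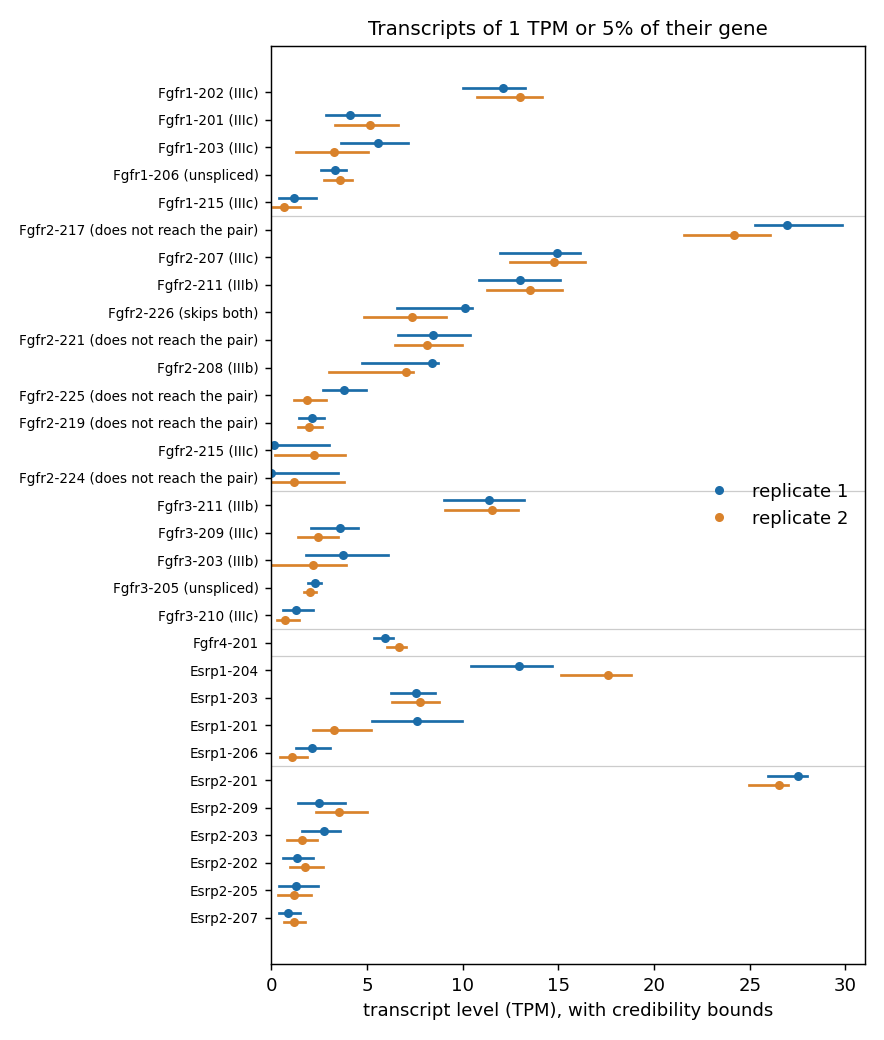
Level in TPM (points) with the authors' credibility bounds (lines) of the 31 transcripts with at least 1 TPM or 5% of their gene in either library, grouped by gene, with the form of receptor transcripts in brackets. Fgfr2-217 leads Fgfr2 at 26.93 and 24.20 TPM, and Esrp1-201 and Esrp1-204 are the transcripts whose bounds do not overlap between replicate 1 (blue) and replicate 2 (orange).

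Other splicing choices change the same receptors. The first immunoglobulin loop is encoded by 1 exon whose loss gives the shorter receptors known in FGFR1 to bind ligand more tightly. Transcripts with that exon made up 74.5% and 83.3% of Fgfr1 TPM over the transcripts that span it (78.9% ± 6.27), and 21.9% and 21.3% of Fgfr2 (21.6% ± 0.466). The share was 100% for Fgfr3, but no annotated Fgfr3 transcript that spans the site lacks the exon, so the annotation fixes this value. Of the Fgfr2 level with the exon, 10.27 and 9.6 TPM, Fgfr2-226, the transcript annotated for decay, held 10.12 and 7.36 TPM. Over protein-coding transcripts alone, a calculation added after the data were seen, the Fgfr2 share was 0.408% and 5.93% (3.17% ± 3.9), and that of Fgfr1 was 73.9% and 82.8%. The acid box is an acidic stretch between the first and the second loop. It was encoded in 39.9% and 36.8% of Fgfr2 TPM over the transcripts scored for it (38.3% ± 2.15). Over protein-coding transcripts alone the share was 23.3% and 24.5% (23.9% ± 0.866).

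A second choice follows the transmembrane segment, where an alternative donor adds 6 bases that encode valine and threonine, known in FGFR1 to allow binding of the adaptor Frs2. The exon ends are shown with those 6 bases in capitals.
Fgfr1 transmembrane exon, last 36 bases (chr8:25566878-25566913, plus strand): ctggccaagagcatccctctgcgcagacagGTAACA
Fgfr2 transmembrane exon, last 36 bases (chr7:130196172-130196207, minus strand): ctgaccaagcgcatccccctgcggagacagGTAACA
Shares are of the TPM of transcripts that hold this exon as an internal one, not of the whole gene. The longer end made up 98.0% and 97.1% of Fgfr1 (97.6% ± 0.647) and 68.1% and 67.3% of Fgfr2 (67.7% ± 0.567). Over protein-coding transcripts alone these were 59.3% and 60.9% of Fgfr2, and 100% of Fgfr1 in both libraries. No protein-coding Fgfr1 transcript is annotated with the shorter end, so the annotation fixes that 100%. In Fgfr2 the shorter end came from the IIIc transcript Fgfr2-207 at 14.95 and 14.77 TPM, while both leading IIIb transcripts had the longer end. These choices were not independent readings, since the same few transcripts carry all of them and the authors' quantification assigns reads to whole transcripts.

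Esrp1 (chr4:11331933-11386783, minus strand) had 7 transcripts, of which 6 are protein-coding. Esrp1-204 had 12.93 and 17.60 TPM, Esrp1-203 had 7.58 and 7.77 TPM, and Esrp1-201 had 7.62 and 3.30 TPM. Esrp1-206 had 2.15 and 1.07 TPM. Esrp1-201 was higher in replicate 1 and Esrp1-204 in replicate 2, while the gene as a whole was level. Their bounds did not overlap between the libraries: 5.255 to 9.945 TPM against 2.173 to 5.206 TPM for Esrp1-201, and 10.44 to 14.69 TPM against 15.13 to 18.78 TPM for Esrp1-204. These were 2 of the 26 member transcripts with 1 TPM or more in both libraries. Over all such transcripts the bounds did not overlap in 14.9% of 31303.

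At the 3′ end of Esrp1, transcripts differ in whether they hold any exon of an alternative pair before the last exon. Any exon of the pair was present in 57.3% and 40.8% of the TPM of the transcripts scored for this choice (49.1% ± 11.7). This share does not separate the exons of the pair, and Esrp1-204 is the transcript with neither. An upstream exon of Esrp1 ends at either of 2 donors 12 bases apart, a choice known to place the protein in the nucleus or the cytoplasm. The end of the longer exon is shown with the 12 bases in capitals.
Esrp1 exon with 2 donors, last 42 bases (chr4:11357460-11357501, minus strand): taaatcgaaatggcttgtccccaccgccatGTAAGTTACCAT
The longer end, found in Esrp1-203, made up 25.0% and 26.1% of the TPM of the Esrp1 transcripts scored for this choice (25.6% ± 0.773).

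Esrp2 (chr8:106130319-106136974, minus strand) had 9 transcripts and rested on 1 of them, Esrp2-201, at 27.54 and 26.51 TPM, or 72.89% and 71.1% of the gene. Retained-intron transcripts followed: Esrp2-209 at 2.51 and 3.53 TPM, Esrp2-203 at 2.76 and 1.61 TPM, Esrp2-202 at 1.33 and 1.78 TPM, and Esrp2-205 at 1.32 and 1.18 TPM. The other protein-coding transcript, Esrp2-207, had 0.88 and 1.21 TPM. Esrp2 overlaps the noncoding gene 1810019D21Rik (22.95 and 22.07 TPM) and Nfatc3 (4.31 and 3.91 TPM) on the opposite strand. The strand setting of the counting is not given in the sources used here, so reads in the overlap cannot be told apart. The opposite-strand neighbours of Fgfr1 and Esrp1, Gm16159 and Gm26663, were at most 0.25 TPM in either library.

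All ligands of the lists were below Fgfr1, Fgfr2 and Fgfr3, while Fgf9 was above Fgfr4 in both libraries and Fgf10 in replicate 2. The lists group ligands by receptor form and not by receptor, so they do not say which ligands bind the IIIb form of Fgfr3. Of the 4 ligands listed for IIIb receptors, 2 were detected: Fgf10 at 4.95 and 7.73 TPM (6.34 ± 1.966) and Fgf7 at 3.61 and 2.19 TPM (2.9 ± 1.004). Both are known as mesenchymal signals to epithelium. Fgf22 had 0.17 and 0.08 TPM and Fgf3 had 0.01 and 0.03 TPM. Fgf10 was higher in replicate 2 and Fgf7 higher in replicate 1. Of the 10 ligands listed for IIIc receptors, 2 were detected: Fgf9, known as an epithelial and mesothelial signal to gut mesenchyme, at 10.37 and 9.68 TPM, and Fgf18 at 3.06 and 3.34 TPM. Fgf2 had 0.96 and 1.79 TPM. Fgf4, Fgf6, Fgf8, Fgf16 and Fgf17 were below 1 TPM in both libraries, with Fgf16 highest among them at 0.86 and 0.65 TPM. Fgf1, which binds both forms, had 3.37 and 3.24 TPM. None of the 3 endocrine ligands was detected: Fgf15 had 0.15 and 0.08 TPM, Fgf21 had 0.16 and 0.35 TPM, and Fgf23 was listed at 0.

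Of 5 coreceptors and binding partners 4 were detected. Fgfbp1, a secreted carrier that releases FGFs from the matrix, had 57.29 and 37.11 TPM (47.2 ± 14.27). Fgfrl1, a receptor relative without a kinase domain, had 15.81 and 17.33 TPM, and Fgfbp3 had 4.45 and 4.93 TPM. Kl, the coreceptor of Fgf23, had 0.1 TPM in both. All 8 adaptors were detected, led by Shc1 (69.36 and 83.48 TPM), Grb2 (66.38 and 67.88 TPM) and the phospholipase Plcg1 (24.68 and 30.17 TPM). All 9 feedback and target genes were detected, led by the inhibitor Spry2 (43.73 and 43.88 TPM), the ERK phosphatase Dusp6 (28.46 and 27.69 TPM) and the transcription factor Etv5 (11.51 and 13.15 TPM). Of the genes of these lists with at least 20 counts over both libraries, none was past 2-fold between them, against 7.31% of all such genes. Those compared included 2 of the 4 IIIb ligands, 6 of the 10 IIIc ligands and no endocrine ligand.

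**Figure D4:**
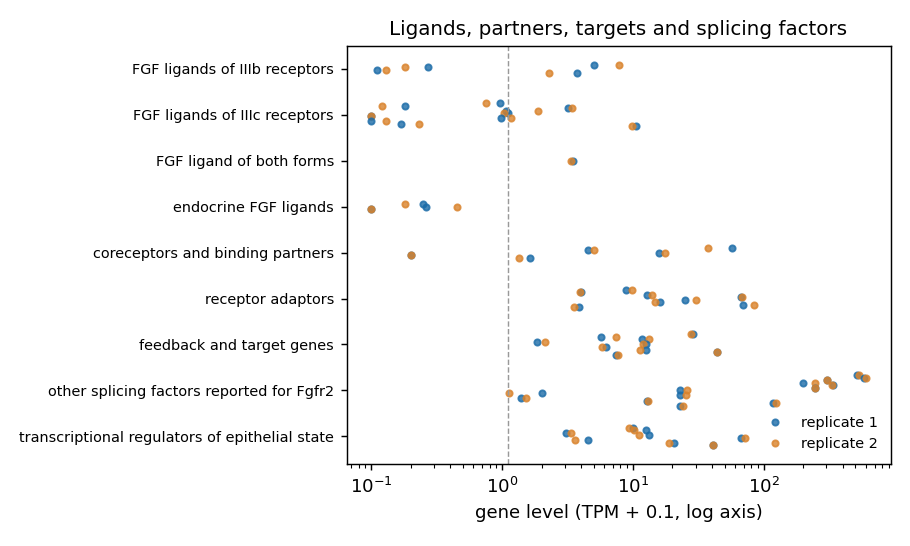
Gene level in TPM + 0.1 on a log axis for the ligand, partner, adaptor, target, splicing factor and regulator lists, with 1 point per gene and library (replicate 1 blue, replicate 2 orange) and a dashed line at the detection threshold of 1 TPM. Most IIIc ligands and all endocrine ligands lie near or below the line, while all adaptors, targets, splicing factors and regulators lie above it.

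All 13 other splicing factors reported to act on Fgfr2 transcripts were detected, and their list medians were 117 TPM (replicate 1) and 124 TPM (replicate 2). The highest were Hnrnpf (577.24 and 599.15 TPM), Hnrnpa1 (517.35 and 530.15 TPM) and Morf4l1 (334.83 and 330.53 TPM), a reader of histone methylation that recruits Ptbp1 in human cells. Of genes named after their values were seen, Ptbp1, a repressor of the IIIb exon, had 244.46 and 244.04 TPM, and Hnrnpm had 198.91 and 245.85 TPM. Rbfox2, a further regulator of the pair, had 22.64 and 25.33 TPM. For comparison, Esrp1 and Esrp2 together came to 68.79 and 67.4 TPM.

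All 8 transcriptional regulators of the epithelial state were detected. The repressors of epithelial genes Snai2 (66.79 and 71.71 TPM), Zeb2 (40.36 and 40.92 TPM) and Zeb1 (20.43 and 18.73 TPM) were the highest. Zeb1 is known to repress Esrp1. Of the Grhl and Ovol genes of the list, named after their values were seen, Ovol1 had 12.51 and 10.04 TPM. Grhl2 had 9.86 and 9.23 TPM, and Ovol2 had 2.97 and 3.23 TPM. Epithelial markers (11 of 11 detected) had a median of 134 and 154 TPM, and mesenchymal markers (10 of 10 detected) a median of 319 and 312 TPM.

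The genes of these pathway lists nearest in level to each member, by Euclidean distance in log2(TPM + 0.1) over the 2 libraries among 61 genes, were as follows. Dusp6 and then Plcg1 lay nearest to Fgfr1 and also to Esrp1, at distances of 0.049 and 0.272 for Fgfr1 and 0.172 and 0.328 for Esrp1. Shc1 (0.351) and Snai2 (0.458) lay nearest to Fgfr2, and Tial1 (0.218) and Zeb1 (0.279) nearest to Fgfr3. Etv4 (0.194) and Spry4 (0.26) lay nearest to Fgfr4, and Zeb2 (0.164) and Spry2 (0.315) nearest to Esrp2. With 2 libraries of 1 group this measures level alone.

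Between the libraries the 6 genes differed by amounts typical of all genes. Ratios are log2 of TMM-scaled counts, replicate 1 over replicate 2, with a counting interval at 95%. None of the 6 was past 2-fold, against 7.31% of the 19303 genes whose counts over both libraries summed to 20 or more. That rule admits genes with far fewer counts than the members. The median absolute log2 ratio of the 19303 genes was 0.134, and 17.2% of them were closer to 0 than Esrp1, the member with the smallest ratio. Fgfr2 had 7305 counts in replicate 1 and 6877 in replicate 2, a log2 ratio of 0.13 (0.08 to 0.18). Fgfr3 had the largest ratio, 0.28 (0.20 to 0.36) from 2728 and 2309 counts, and 72.6% of the tested genes were closer to 0. Esrp2 had 0.09 (0.02 to 0.16) from 3146 and 3045 counts. The intervals of the other genes included 0: Fgfr1 with 0.07 from 3365 and 3309 counts, Esrp1 with 0.04 from 3336 and 3342 counts, and Fgfr4 with -0.12 (-0.28 to 0.04) from 599 and 670 counts. Scaled by spike-in totals, the median log2 ratio of all genes was 0.679 in place of -0.00151, and that of Fgfr4 was 0.56. The leading transcript of each of the 6 genes was the same in both libraries, while it differed in 8.59% of 9966 genes with several transcripts and at least 100 counts in each library. With only 6 genes, neither this share nor the 7.31% sets the members apart from other genes.

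Some markers of other tissues and of the squamous forestomach differed far more between the pools than the 6 genes. The squamous list had a median log2 ratio of 0.73, with 4 of 9 genes past 2-fold and higher in replicate 1 (Krt4, Krt13, Sprr3 and Krtdap), and its members summed to 2834 and 1507 TPM. The liver list had 1.33, with 6 of 10 past 2-fold and higher in replicate 1, among them Alb at 225.27 and 67.65 TPM, and a sum of 2307 and 1181 TPM. Its members differed in direction: Cps1 (40.52 and 69.98 TPM) and Apob (8.78 and 14.51 TPM) were higher in replicate 2, short of 2-fold. Of all 19303 genes, 6.2% were past 2-fold and higher in replicate 1. The striated muscle list had -0.98 over its 6 genes with enough counts for a ratio. Of these, 3 were past 2-fold and higher in replicate 2 (Acta1, Myog and Tnnt3), as were 1.11% of all genes. Short of 2-fold, Myod1 (-0.64) and Ckm (-0.14) were also higher in replicate 2, while Myf5 (0.64, from 0.33 and 0.21 TPM) was higher in replicate 1. The list sum was 32.38 and 66.45 TPM, and its member Pax7, without a ratio, was at 0.02 and 0.03 TPM. The pancreas list had -0.46, with none of 7 past 2-fold and a sum of 6689 and 8984 TPM. Lists for epithelium (-0.07), mesenchyme (0.01) and smooth muscle (0.03) were level, with none of their genes past 2-fold. Cartilage markers were at 3.73 TPM or less, with a median log2 ratio of -0.45, and the glandular list had 0.16. The part of these tissues in the values of Fgfr3 and the other members was not tested.

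**Figure D5:**
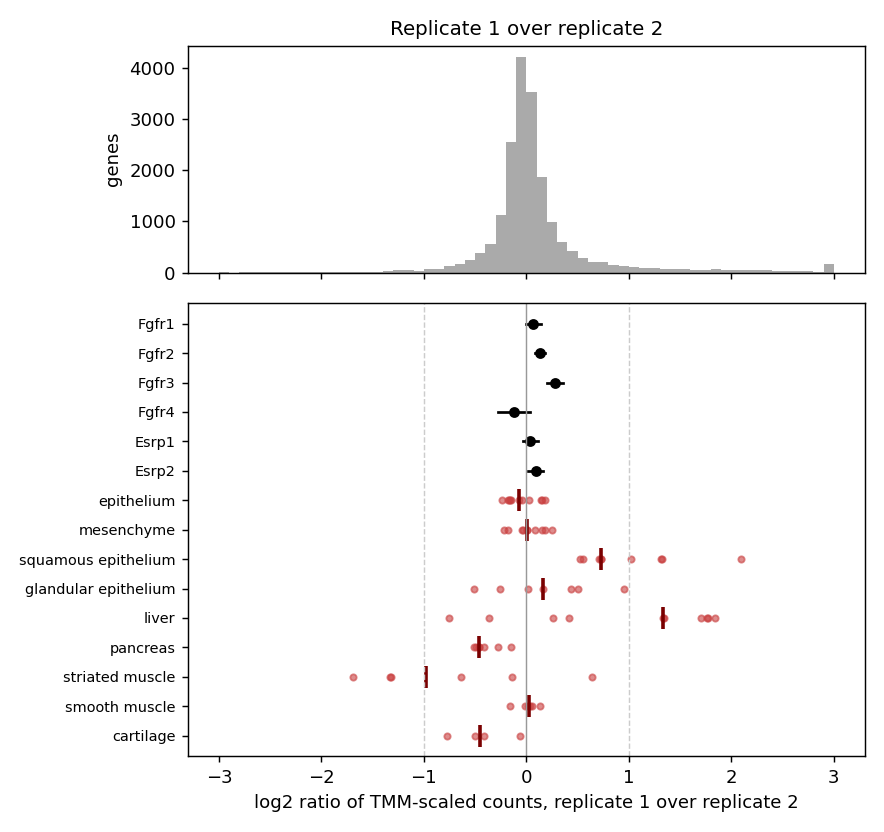
Log2 ratio of TMM-scaled counts, replicate 1 over replicate 2: a histogram of all 19303 tested genes above (values beyond 3 in either direction are drawn in the end bins), and below it the 6 member genes (black, with counting intervals) and the genes of 9 marker lists (red, with a bar at each list's median). The members lie between -0.12 and 0.28, inside the dashed 2-fold lines, while squamous and liver markers reach past 2-fold toward replicate 1 and striated muscle markers toward replicate 2.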

How the data were processed

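RNA of 2 pools of stomachs was sequenced, 10 ng of RNA per library per the labels. Per the file headers, the deposited tables give an expected count per gene and transcript, TPM and FPKM scaled by the authors per length and library, posterior means, credibility bounds, and, as a percent, each transcript's part of its gene. The text file deposited with the tables names build mm10 and annotation M4. Aligner, quantification program, versions and strand setting: not given in the sources used here. For long features the effective length was 99 bases under their length. Features that name no Ensembl gene took 86 and 85 counts, spike-ins 1.883% and 2.999% of counts; all stayed out of library sizes.

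Symbols, exons and sequences came from GENCODE M21 of the same build, matched without version (42462 of 43346 genes). Of the 72 transcripts 6 differed in length between the tables and M21, and 19 had 0 counts in both libraries. Exons were aligned with mafft 7.526. Expected counts were rounded. Library sizes came from TMM (edgeR 4.0.16) over genes whose 2 counts summed to 10 or more, ratios on the log2 scale used a prior count of 0.5, and intervals were exact binomial (Clopper-Pearson, scipy 1.17.1). DESeq2 1.42.0 size factors were an alternative. The ratio step was tested on simulated counts. The search for leading transcripts was tested on a copy of the replicate 1 values with the top transcripts of some genes exchanged.

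Named were the 6 genes, their transcripts of at least 1 TPM or 5% of the gene in either library, and of each pathway list the 3 highest genes, those below 1 TPM in both libraries and those past 2-fold. Marker lists were summarised. The members and lists were chosen with earlier results of these data known. The labels call the pools biological replicates. Intron and protein sequences were not used here, and some exon sequences are not reported here.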

Additional observations from a re-analysis of the deposited data

How the results depend on the processing

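The 28 results were recomputed in 113 settings: 92 values stayed within the spread between the libraries, or within 1.5 times for counts, and 21 moved, among them 1 change of sign (Fgfr4 under spike-in scaling). The 92 include settings that could not move. With 2 libraries, each library always lies within the SD of their mean. Transcript TPM summed to genes nearly repeats the gene values. The count of 92 is therefore not a measure of robustness. With the TPM of Fgfr2-217 subtracted, a setting chosen after seeing the data, the mean of Fgfr2 was 60.25 TPM and its log2 ratio over Fgfr1 1.07. Its reads were not assigned anew to other Fgfr2 transcripts. The IIIb share of Fgfr1 was 3.18% with posterior-mean TPM. It was 4.36% over transcripts of equal length in M21, a rule that by construction drops IIIc but no IIIb transcripts of Fgfr1. The IIIb share of Fgfr2 was 46.5% in expected counts, which are not scaled by transcript length. It was 33.3% over transcripts of equal length, which drops Fgfr2-211 by construction. In these settings IIIb was no longer the larger form. Over protein-coding transcripts alone, a setting chosen after seeing the data, the Fgfr2 shares were 3.17% for the first loop exon, 23.9% for the acid box and 60.1% for the longer transmembrane exon. The last was 100% in Fgfr1, a value fixed by the annotation. The log2 ratio of Fgfr2 over Fgfr1 was 1.55 with a pseudocount of 1 against 1.58, since adding the same amount to both levels makes their ratio smaller. The log2 ratio of Esrp1 over Esrp2 was -0.32 with posterior-mean TPM against -0.30, and the cause of that change was not tested. Scaled by spike-in totals, the median log2 ratio of all genes was 0.679 in place of -0.00151, and replicate 1 over replicate 2 became 0.75 for Fgfr1, 0.81 for Fgfr2, 0.96 for Fgfr3, 0.56 for Fgfr4, 0.72 for Esrp1 and 0.77 for Esrp2; that scaling is 1 factor for all genes. Genes past 2-fold numbered 5738 with no filter and 568 with at least 100 counts, against 1411. Genes with another leading transcript numbered 561 with at least 500 counts per library, against 856. The number of genes tested changed with each filter, so these counts cannot be compared as shares, and the cause of the changes was not tested. Each library alone gave the values printed per library. No paired analysis was possible because there is 1 group. The IIIb transcripts of Fgfr1 had lower bounds near 0 in both libraries.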
